A study of Mus musculus with 6 samples.

Results

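The genes described here are 38 genes of the cell cycle and of proliferation, followed in dorsal root ganglia, the clusters of sensory neuron cell bodies beside the spinal cord. They were chosen by name for their role in DNA replication or mitosis, and a gene was kept if it had a row in the deposited table. All 38 had one, out of 16613 genes in the table, whose smallest total over the libraries was 6 counts. Among the members the smallest totals were those of Ccnb1 with 49 counts and Aurkb with 72 counts, so no member lay near that limit. The list was drawn up with genotype differences of these data known, so counts and medians over it are a description and carry no test.

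The knockout group was 3 libraries of mice with the genotype Kif2a fl/fl and Avil cre, in which loxP-flanked (floxed) alleles of Kif2a meet a Cre recombinase under control of Avil, a gene of sensory neurons. The control group was 3 libraries of Kif2a fl/fl mice without the Cre. All mice were 6 months old, and both groups carried the floxed alleles. Only the knockout group carried the Cre, so an effect of Kif2a loss and an effect of the Cre cannot be told apart. Avil is known as a gene of sensory neurons, and a ganglion also holds glia, vessels, connective tissue and blood cells, whose RNA is in the same libraries. Nothing in the labels ties each library to an animal of its own. The p-values reflect the spread among these samples alone, which may be technical.

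Cells that divide copy their DNA in S phase and separate it in mitosis, and each step has its own genes. The Mcm helicase and the nucleotide enzymes serve replication, cyclins with Cdk1 drive entry into mitosis, and kinases, kinetochore proteins and the spindle machinery carry it out. Mature sensory neurons have left the cell cycle, whereas glia, macrophages and endothelial cells of a ganglion can still divide. Transcripts of mitosis are largely confined to cycling cells, while several replication and chromosome genes are also transcribed in cells that do not divide.

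Library totals ran from 16090726 to 19221415 counts, and levels are given as CPM, counts scaled by library size, on which 3 counts are worth 0.156 to 0.186. Kif2a itself, a kinesin that depolymerises microtubules, was at 90.5, 85.6 and 88.5 CPM in the knockout libraries and at 105.6, 93.8 and 92.6 CPM in the control libraries. The log2 fold change, -0.14 (SE 0.10), missed the threshold (edgeR adjusted p = 0.957). A count over the whole gene says little about a deletion of some exons, and the labels do not give the floxed exons. Avil fell by 1.16 on the log2 scale (SE 0.067, adjusted p = 2.39e-05) in edgeR with replicate number added as a blocking term, called the replicate block here, and missed the threshold without it (adjusted p = 0.084). The authors' deposited values gave Avil a false discovery rate of 1.84e-12, at a log2 fold change of -1.163. Control replicate 2 stood apart by its skeletal muscle markers, with a summed level of 1779 CPM over 10 genes, against 7.30 to 77.7 CPM in the other libraries.

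Most of the members were sparse. Their median level was 3.51 CPM, against 23.2 CPM over all 15043 genes tested. Of the 38 members, 3 averaged under 1 CPM, 20 were between 1 and 5 CPM, 11 between 5 and 20 CPM and 4 above 20 CPM. No member was at 0 in any library, and 10 members stayed under 50 counts in every library. Per kilobase of annotated exon, Pcna had the highest level at 17.4 CPM per kb, followed by Smc4 at 9.87 CPM per kb and Mcm4 at 5.83 CPM per kb. Pcna and the Mcm genes serve replication, and Smc4 is a subunit of condensin. The lowest were Cenpf at 0.0933 CPM per kb, Ccnb1 at 0.112 CPM per kb and Ncapg at 0.115 CPM per kb. Mki67, which encodes the proliferation marker Ki-67, was at 0.928 CPM per kb. In bulk ganglia, fewer cells that express a gene and less RNA per cell cannot be told apart.

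Between genotypes, the cell cycle genes leaned to the knockout side by small amounts, and Mki67 was the only member called, in edgeR with the replicate block. Ccnb1 was too sparse to be tested, and 32 of the 37 tested members (86.5%) had a positive log2 fold change, against 52.3% of all genes tested. The median log2 fold change was 0.26 over these members and 0.011 over all genes. Without knockout replicate 3 the members' median was 0.092, and without control replicate 1 it was 0.11. Without knockout replicate 3, 22 of the 37 log2 fold changes shrank by over 1.5 times or changed sign, and 14 did so without control replicate 1. In edgeR's quasi-likelihood test without a block, 0 members passed an adjusted p of 0.05, as did 0% of all genes, and 3 had an unadjusted p under 0.05 (8.11%, against 5.48% of all genes). DESeq2 and limma-voom also called 0 members, and DESeq2 called 0.421% of all genes. With the replicate block, 1 member passed, and it was higher in the knockout (2.7% of the tested members, against 1.24% of all genes that were higher, 2.36% that were lower and 3.6% in either direction). In the same fit 8 members had an unadjusted p under 0.05 (21.6%), close to the 19.1% of all genes. By the authors' deposited table, 0 members had a false discovery rate under 0.05, against 0.849% of all genes in it, and the lowest rate among members was 0.114, for Birc5.

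**Figure D1:**
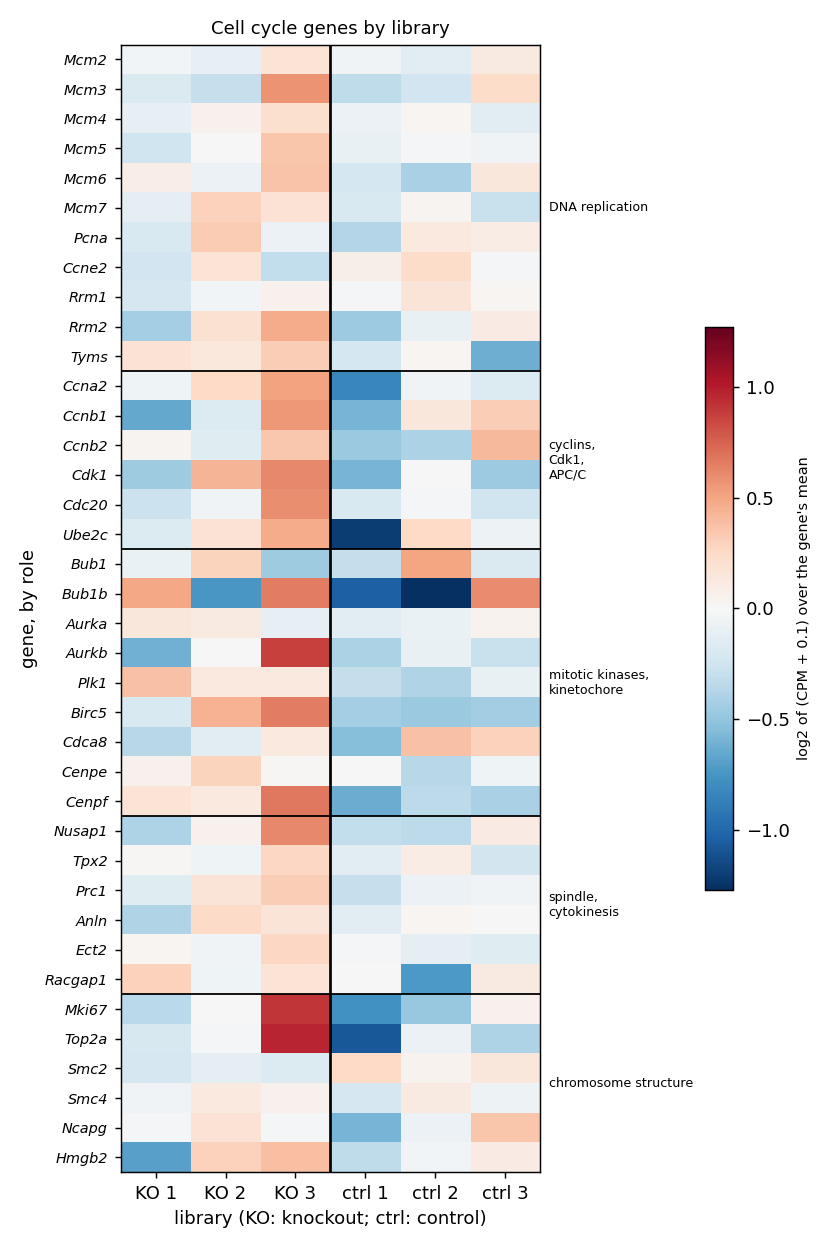
Level of each of the 38 cell cycle genes (rows, by role) in the 3 knockout libraries (KO, left) and the 3 control libraries (ctrl, right). Colour is the log2 ratio of the level, in CPM with 0.1 added, to the gene's mean over the 6 libraries, and 23 of 38 genes had their highest level in knockout replicate 3. The share of all genes with their highest level in that library was not counted.

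Mki67 was counted 139, 159 and 285 times in knockout replicates 1 to 3, and 97, 113 and 174 times in control replicates 1 to 3. On the CPM scale these were 7.36, 9.29 and 17.6 in the knockout libraries, and 5.43, 6.67 and 9.69 in the control libraries. The groups overlapped, since control replicate 3 was above knockout replicates 1 and 2, yet the knockout was higher in 3 of 3 same-numbered pairs. Without a block the log2 fold change was 0.65 (SE 0.35, edgeR adjusted p = 0.93). With the replicate block Mki67 rose by 0.60 (SE 0.14, edgeR adjusted p = 0.0421). The blocked call was lost without pair 1, at a log2 fold change of 0.67 (adjusted p = 0.116), and without pair 3, at 0.46 (adjusted p = 0.177). Without pair 2 it held, at 0.67 (adjusted p = 0.013). Without knockout replicate 3, the unblocked log2 fold change was 0.20 (SE 0.28). Mki67 lies on the minus strand of mouse chromosome 7, from 135689784 to 135716361 (GRCm38, the build also called mm10), and no exon of another gene overlaps its exons.

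By blocked p, Birc5, Top2a, Ccna2 and Cenpf followed Mki67. Birc5, which encodes survivin of the chromosomal passenger complex, had 83, 118 and 129 counts in the knockout libraries and 66, 61 and 66 counts in the control libraries. Birc5 was thus at 6.41 ± 1.83 CPM in the knockout and 3.66 ± 0.0509 CPM in the control (SD, n = 3 each). The groups did not overlap, and the spread lay in the knockout libraries. At a log2 fold change of 0.81 (SE 0.24), Birc5 passed neither edgeR fit (adjusted p = 0.79 unblocked and 0.0608 blocked).

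Top2a, the topoisomerase that untangles replicated chromosomes, had 58, 60 and 114 counts in the knockout libraries and 29, 57 and 48 counts in the control libraries. In pair 2 the levels were 3.51 CPM in the knockout and 3.36 CPM in the control, so the difference lay in pairs 1 and 3. The log2 fold change was 0.82 (SE 0.39, edgeR adjusted p = 0.914), it was 0.36 without knockout replicate 3, and the blocked fit did not call it (adjusted p = 0.133). Of the blocked edgeR fits with 1 pair left out, the one without pair 2 called Top2a (adjusted p = 0.00151). It leaves out the pair where Top2a hardly differed, and it called 819 genes, against 542 with all pairs. Without pair 1 or pair 3 Top2a was not called (adjusted p = 0.382 and 0.447).

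**Figure D2:**
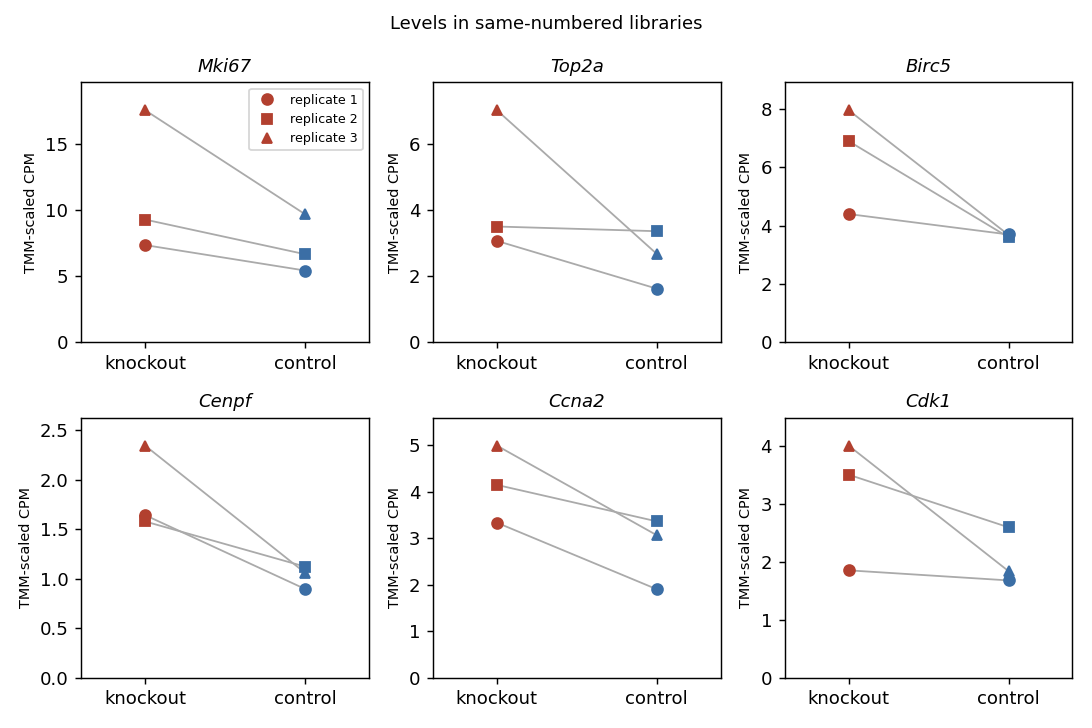
TMM-scaled CPM of 6 members in the knockout libraries (left, red) and control libraries (right, blue), with lines joining libraries of the same replicate number. All 6 are among the 18 of 37 tested members higher in 3 of 3 pairs, so each line is higher on the knockout side. Smc2 and Racgap1, each with a smaller blocked p than Cdk1, are not shown. In 3 of 3 pairs Smc2 was lower and Racgap1 was higher in the knockout. Mki67 in control replicate 3 (9.69 CPM) lies above knockout replicates 1 and 2 (7.36 and 9.29 CPM).

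Promoter sequences are shown for the 4 members with a positive and the 1 member with a negative log2 fold change that had the smallest blocked p, among those with a RefSeq entry and no exon overlap on the other strand, because cell cycle genes are known to share promoter elements. CCAAT boxes are bound by NF-Y. The element TTTGAA or TTCGAA, called CHR, is known to be bound by complexes that switch genes of mitosis. Each line gives the 250 bases before the RefSeq transcription start (GRCm38.p6), 5′ to 3′ on the strand of the gene. Capitals mark, on either strand, the CCAAT box, the CHR (TTTGAA or its variant TTCGAA), and sequences of the kind that E2F factors bind (TTTGGCG, also TTTCGCG, also GGCGGGA). Mki67 is at chr7:135716380-135716629 (minus strand), Birc5 at chr11:117848987-117849236 (plus strand), Top2a at chr11:99024190-99024439 (minus strand), Cenpf at chr1:189688087-189688336 (minus strand) and Smc2 at chr4:52438971-52439220 (plus strand).
Mki67: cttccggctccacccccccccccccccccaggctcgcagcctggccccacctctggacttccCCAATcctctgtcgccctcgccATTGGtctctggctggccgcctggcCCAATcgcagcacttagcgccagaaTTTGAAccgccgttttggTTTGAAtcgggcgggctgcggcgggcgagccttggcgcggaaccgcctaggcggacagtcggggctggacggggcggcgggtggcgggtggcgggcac
Birc5: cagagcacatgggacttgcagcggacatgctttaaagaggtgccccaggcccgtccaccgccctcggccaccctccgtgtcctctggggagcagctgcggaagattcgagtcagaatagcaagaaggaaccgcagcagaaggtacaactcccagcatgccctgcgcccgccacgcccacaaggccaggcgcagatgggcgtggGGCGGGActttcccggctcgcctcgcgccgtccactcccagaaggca
Top2a: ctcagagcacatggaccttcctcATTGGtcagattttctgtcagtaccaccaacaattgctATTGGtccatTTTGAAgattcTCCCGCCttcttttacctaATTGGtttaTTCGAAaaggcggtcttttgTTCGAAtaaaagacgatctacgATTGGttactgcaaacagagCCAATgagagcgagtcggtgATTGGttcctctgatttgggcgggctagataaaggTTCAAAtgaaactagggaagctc
Cenpf: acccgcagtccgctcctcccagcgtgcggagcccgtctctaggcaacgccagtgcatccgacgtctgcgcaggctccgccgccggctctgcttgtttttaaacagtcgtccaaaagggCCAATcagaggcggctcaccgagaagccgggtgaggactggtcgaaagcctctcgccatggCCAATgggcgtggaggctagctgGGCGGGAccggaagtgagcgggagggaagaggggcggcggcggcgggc
Smc2: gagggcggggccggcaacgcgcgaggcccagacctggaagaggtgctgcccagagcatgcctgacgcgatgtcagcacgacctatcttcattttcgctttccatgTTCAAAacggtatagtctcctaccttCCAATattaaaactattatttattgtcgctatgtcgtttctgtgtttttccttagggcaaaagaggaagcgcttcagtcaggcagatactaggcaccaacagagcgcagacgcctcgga
The windows of Mki67, Top2a and Smc2 held both kinds of element, with CCAAT at 3 places and TTTGAA at 2 places in Mki67. The window of Cenpf held the CCAAT box and the motif GGCGGGA. The window of Birc5 held GGCGGGA and neither a CCAAT box nor a CHR.

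Over the 32 members with an entry in the RefSeq promoter table, CCAAT stood in 28 windows (87.5%), against 34.5% of the 27025 genes in the table. CCAAT at 2 or more places was found in 18 members (56.2%), against 10.5% of all genes. TTTGAA stood in 11 members (34.4%), against 16.3% of all genes. In the whole 300-base window, which adds the 50 bases after the start and was counted after the first counts were seen, TTTGAA stood in 19 members (59.4%), against 18.1% of all genes. By role, the whole window held TTTGAA in 5 of 5 chromosome structure genes, 4 of 5 cyclin and Cdk1 genes, 4 of 5 spindle genes, 5 of 8 mitotic kinase and kinetochore genes and 1 of 9 replication genes. Before the start it stood in 0 of the 8 mitotic kinase and kinetochore genes. TTCGAA was found before the start in 3 members (9.38%, against 1.34%), and reads the same on both strands. The sequences of the E2F kind were found before the start in 8 members for GGCGGGA (25.0%, against 9.76%), in 4 for TTTCGCG (12.5%, against 0.703%) and in 2 for TTTGGCG (6.25%, against 1.28%). A match describes the letters of the window, and it does not show that a factor binds there. Each motif was counted on its own, so positions shared by a pair of motifs count for both. Mcm4, Ccne2, Ccna2, Aurkb, Tpx2 and Smc4 had no entry.

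Of the 6 genes of chromosome structure, 5 had a positive log2 fold change, with a median of 0.13, and Mki67 was the 1 that rose. Smc2, the partner of Smc4 in condensin, was the exception. It had 162, 156 and 143 counts in the knockout libraries and 213, 174 and 198 counts in the control libraries. The groups did not overlap, and Smc2 averaged 8.83 ± 0.269 CPM in the knockout and 11.1 ± 0.829 CPM in the control (SD, n = 3 each). The log2 fold change of -0.33 (SE 0.13) passed in neither edgeR fit (adjusted p = 0.905 unblocked and 0.204 blocked). Smc4 was at 53.1 ± 3.09 CPM in the knockout and 49.7 ± 5.65 CPM in the control, with a log2 fold change of 0.10 (SE 0.12). The condensin subunit Ncapg had 13 to 16 counts in the knockout libraries and 9 to 19 counts in the control libraries. Of these 3 condensin genes, Smc2 alone had a negative log2 fold change. Outside the members, by the authors' log2 fold changes, Ncapg2 (-0.28), Ncapd3 (-0.091), Ncapd2 (-0.074) and Ncaph2 (-0.028) were negative and Ncaph (0.18) was positive. The lowest of their false discovery rates in the authors' table was 0.946, for Ncapg2, so these signs do not establish a direction. Hmgb2, a chromatin protein abundant in cycling cells, had a log2 fold change of 0.14 (SE 0.30) and its groups overlapped.

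The cyclins, Cdk1 and the anaphase-promoting complex genes formed the role with the lowest summed level. All 5 tested genes were on the positive side, with a median log2 fold change of 0.42, and none passed in either fit. Their summed level, with Ccnb1 included, was 10.6, 13.9 and 17.8 CPM in the knockout libraries and 7.45, 12.3 and 11.3 CPM in the control libraries. Only knockout replicate 1 was below a control library, and the ratio of knockout to control means was 1.36. Cdk1, the kinase of mitotic entry, had 35, 60 and 65 counts in the knockout libraries and 30, 44 and 33 counts in the control libraries. The log2 fold change was 0.61 (SE 0.34), and 0.39 without knockout replicate 3. Ccna2, the cyclin of S phase and of mitotic entry, had 63, 71 and 81 counts in the knockout libraries and 34, 57 and 55 counts in the control libraries. Ccna2 had a log2 fold change of 0.58 (SE 0.27), which was 0.36 without control replicate 1, and its lowest knockout level, 3.33 CPM, was just under its highest control level, 3.36 CPM. Exons of Ccna2 overlap those of Exosc9 on the other strand. Whether counting used the strand is not stated in the labels, so reads from such a pair cannot be told apart. This also holds for Mcm7, Ccne2, Cdc20, Ube2c, Plk1, Cdca8, Nusap1, Prc1 and Ncapg.

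The mitotic cyclins themselves did not stand out. Ccnb1 had 5, 7 and 12 counts in the knockout libraries and 5, 9 and 11 counts in the control libraries, and it was not tested. Ccnb2 had 22 to 30 counts in the knockout libraries and 18 to 35 counts in the control libraries, with a log2 fold change of 0.19 (SE 0.34). Cdc20, an activator of the anaphase-promoting complex, had 28, 30 and 45 counts in the knockout libraries and 27 to 30 counts in the control libraries, so that knockout replicate 3 alone was apart. Ube2c, its ubiquitin-conjugating enzyme, had 41, 48 and 56 counts in the knockout libraries and 18, 50 and 42 counts in the control libraries. Ube2c shares exonic positions with the muscle gene Tnnc2 on the other strand, and control replicate 2 was the library with muscle transcripts. The part of these transcripts in its 50 counts there was not tested.

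Among the 9 mitotic kinase, passenger and kinetochore genes the median log2 fold change was 0.49, the highest of the roles. Their summed level was 23.5, 25.7 and 27.6 CPM in the knockout libraries and 18.1, 20.3 and 22.0 CPM in the control libraries. These groups did not overlap, and the ratio of the means was 1.27. Of the 5 members whose knockout libraries all lay above the control libraries, 4 were of this role, namely Birc5, Cenpf, Plk1 and Cenpe. Over all roles these 5 were 13.5% of the tested members, against 5.02% of all genes, and the 1 member lying wholly below, Smc2, was 2.7%, against 6.12% of all genes.

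Cenpf, a kinetochore protein, had 31, 27 and 38 counts in the knockout libraries and 16, 19 and 19 counts in the control libraries. The largest log2 fold change of the members was that of Cenpf, 0.85 (SE 0.28), and neither edgeR fit called it (adjusted p = 0.812 unblocked and 0.149 blocked). Plk1, a kinase of spindle assembly, had 50, 38 and 36 counts in the knockout libraries and 29, 26 and 34 counts in the control libraries. That gave a log2 fold change of 0.49 (SE 0.23). Cenpe, a kinetochore kinesin, had 42, 45 and 35 counts in the knockout libraries and 38, 28 and 37 counts in the control libraries. Its groups were apart only on the CPM scale, with a lowest knockout level of 2.16 CPM and a highest control level of 2.13 CPM. The checkpoint gene Bub1b had the largest SE of the members (0.61, at a log2 fold change of 0.60), with 31, 11 and 30 counts in the knockout and 9, 7 and 32 counts in the control. Aurkb had 8 to 22 counts in the knockout libraries and 9 to 11 counts in the control libraries, and its sister kinase gene Aurka had a log2 fold change of 0.11 (SE 0.16). The checkpoint kinase gene Bub1 (-0.11, SE 0.34) and the passenger gene Cdca8 (-0.21, SE 0.31) were on the negative side.

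**Figure D3:**
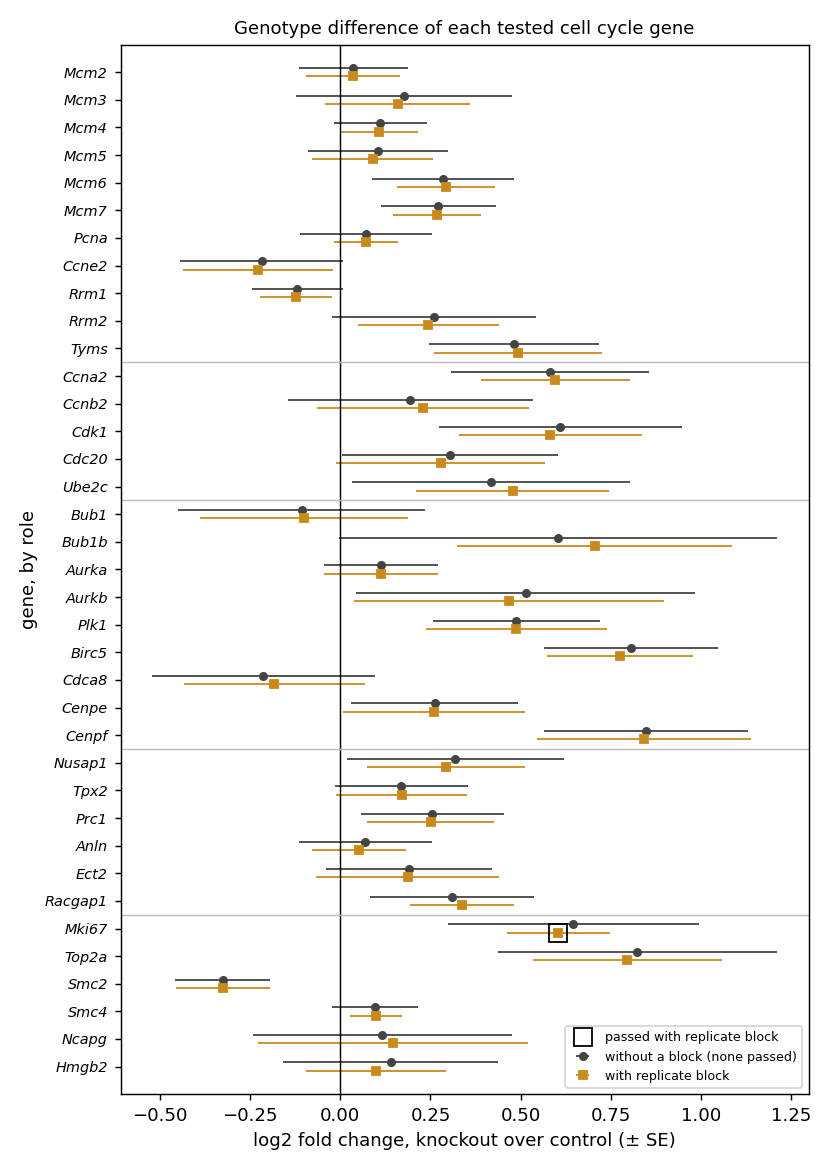
Log2 fold change of the 37 tested cell cycle genes, knockout over control, with its SE, from edgeR without a block (circles) and with the replicate block (squares). Most points lie right of 0, the largest at 0.85 for Cenpf and the lowest at -0.33 for Smc2, and Mki67 alone is boxed as passed.

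All 6 spindle and cytokinesis genes were on the positive side, by small amounts, with a median log2 fold change of 0.22, and none passed. Nusap1, Tpx2 and Prc1 encode microtubule-binding proteins of the spindle. Their log2 fold changes were 0.32 (SE 0.30), 0.17 (SE 0.18) and 0.26 (SE 0.20). Without knockout replicate 3 they were 0.011, 0.071 and 0.15. Racgap1, a GTPase-activating protein of the central spindle, had 246, 175 and 195 counts in the knockout libraries and 189, 108 and 206 counts in the control libraries. Control replicate 2 was low, and the log2 fold change was 0.31 (SE 0.23). Ect2, the exchange factor that starts furrowing, was at 2.06 ± 0.252 CPM in the knockout and 1.80 ± 0.0917 CPM in the control (SD, n = 3 each). Anln, a scaffold of the cleavage furrow, was the most abundant of this role by CPM. It was at 12.7 ± 2.83 CPM in the knockout and 12.1 ± 0.788 CPM in the control, so the difference was smaller than the spread.

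The 11 replication genes had the smallest median log2 fold change of the roles, 0.11, and a ratio of summed levels of 1.06. None passed in either fit. Their summed level was 120.6, 146.5 and 145.6 CPM in the knockout libraries and 116.9, 137.1 and 133.6 CPM in the control libraries, and the groups overlapped. The Mcm genes encode the replicative helicase, and their log2 fold changes ran from 0.036 (SE 0.15) for Mcm2 to 0.29 (SE 0.20) for Mcm6. Mcm7 was at 14.0 ± 1.98 CPM in the knockout and 11.6 ± 1.37 CPM in the control (SD, n = 3 each). Pcna, the sliding clamp, was at 36.6, 52.3 and 39.6 CPM in the knockout libraries and at 32.2, 45.6 and 44.6 CPM in the control libraries. Replicate 2 was the highest library of both groups for Pcna.

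The nucleotide enzymes did not share a direction. Tyms, thymidylate synthase, had 64, 56 and 60 counts in the knockout libraries and 45, 51 and 34 counts in the control libraries. Its groups did not overlap, and the log2 fold change was 0.48 (SE 0.24, edgeR adjusted p = 0.914). The ribonucleotide reductase genes were at 0.26 (SE 0.28) for Rrm2, the subunit made in S phase, and at -0.12 (SE 0.13) for Rrm1. Ccne2, a cyclin of S-phase entry, had 49, 60 and 40 counts in the knockout libraries and 58, 62 and 55 counts in the control libraries, a log2 fold change of -0.22 (SE 0.22). It was lower in 3 of 3 pairs, as was Smc2 (5.41% of the tested members, against 20.6% of all genes). On the other side, 18 members were higher in 3 of 3 pairs (48.6%, against 21.4% of all genes).

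The wider cell cycle lists had smaller median log2 fold changes than the 0.26 of the members. Of 42 further regulators, of the G1/S transition and of later steps, 41 were tested and 28 were positive (68.3%, against 52.3% of all genes). Their median log2 fold change was 0.079, and none passed in either edgeR fit. Without the block 2 had an unadjusted p under 0.05 (4.88%, near the 5.48% of all genes). These were Wee1 at 0.36 (SE 0.13) and Btg2 at 0.45 (SE 0.16). Wee1 restrains Cdk1 and Btg2 is antiproliferative. Of 44 further S-phase genes, 25 were positive (56.8%), with a median of 0.045, and none passed in either fit. In edgeR without the block 4 had an unadjusted p under 0.05 (9.09%, against 5.48% of all genes). Clspn, a mediator of the replication checkpoint, had 20, 13 and 27 counts in the knockout libraries and 5, 7 and 9 counts in the control libraries. Clspn was thus higher by 1.52 on the log2 scale (SE 0.43), more than any member, and edgeR with the block did not call it (adjusted p = 0.0644). Hells, a chromatin remodeller, was lower in every knockout library, with a log2 difference of -0.43 (SE 0.14) and a blocked adjusted p of 0.101.

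Of 60 names of further G2 and mitosis genes, Knl1 and Casc5 being the same gene, 58 were in the table and 51 tested. Of those tested, 32 were positive (62.75%, against 52.3% of all genes), and the median log2 fold change was 0.12. With the replicate block 0 rose and 1 fell, where 1.24% of all genes rose and 2.36% fell. The gene that fell was Kif23, the kinesin partner of Racgap1 in the central spindle. Kif23 had 76, 123 and 99 counts in the knockout libraries and 137, 206 and 146 counts in the control libraries. It fell by 0.70 on the log2 scale (SE 0.16, edgeR adjusted p = 0.0339 with the block, and 0.899 without it), and its groups did not overlap. The summed level of these 58 genes was 396, 449 and 450.4 CPM in the knockout libraries and 389.8, 479.7 and 434 CPM in the control libraries, with a ratio of means of 0.994. For the 38 members the same ratio was 1.11.

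Of 15 markers of neutrophils and their precursors, all were in the table and none was at 0 in any library. Of these, 14 were tested and 14 were positive. With the replicate block 9 rose (64.3%, against 1.24% of all genes), among them S100a9, Ngp, Lcn2 and Ltf. In edgeR without it 0 passed, and 3 had an unadjusted p under 0.05 (21.4%, against 5.48% of all genes). Their summed level was 126, 163 and 343 CPM in the knockout libraries and 62.8, 83.4 and 206 CPM in the control libraries. The groups overlapped, since control replicate 3 was above knockout replicates 1 and 2. In both groups replicate 3 was the highest and replicate 1 the lowest. This order was found in 5 of the 38 members (13.2%, against 3.64% of all genes), Mki67 among them and Birc5, Top2a and Ccna2 not. Gene by gene, 9 of the 15 neutrophil markers had it. It was not confined to them, since 5 of 8 fibroblast, 5 of 12 macrophage and 3 of 7 erythroid markers had it too. In each other marker list at most 2 genes had it. Precursors of neutrophils and of red cells are cells that divide. Of 13 erythroid markers 7 were in the table, none at 0, and their sum was 32.2, 51.5 and 89.0 CPM in the knockout libraries and 21.6, 45.2 and 45.5 CPM in the control libraries. Of these Slc4a1 rose with the block. The part of these cells in the difference of Mki67 and the other members was not tested.

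**Figure D4:**
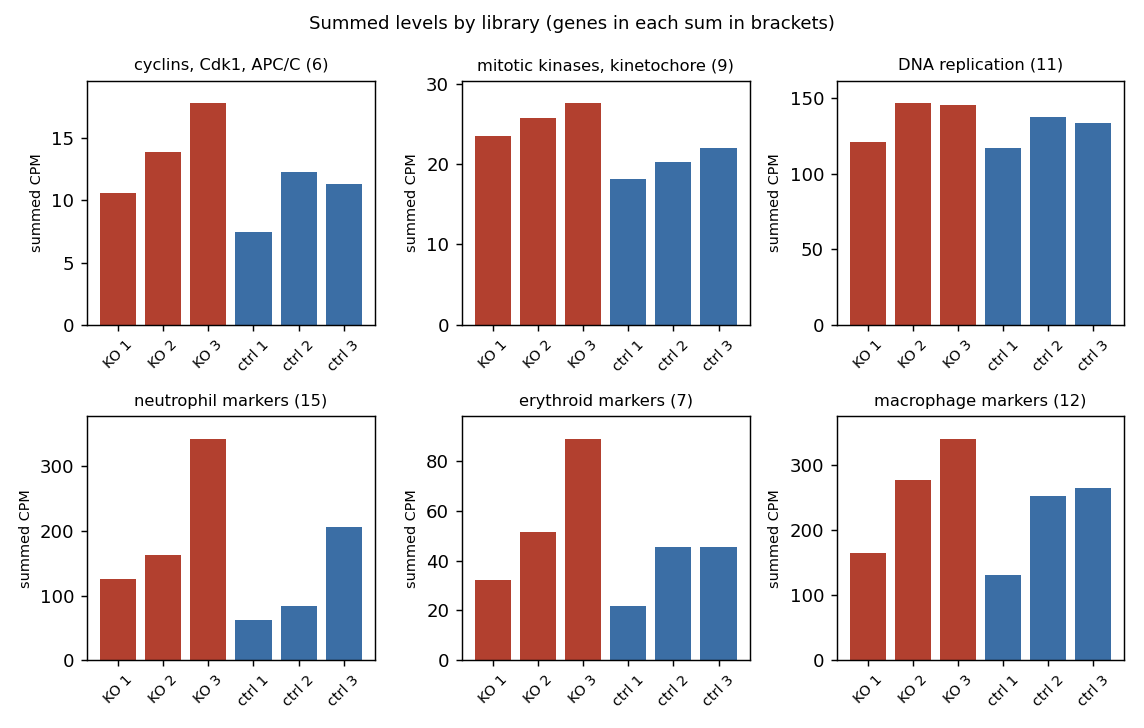
Summed level, in CPM, of 3 roles of cell cycle genes (top row) and of markers of neutrophils, erythroid cells and macrophages (bottom row) in each library, with knockout libraries (KO, red) left of control libraries (ctrl, blue). Knockout replicate 3 holds the highest sum in every panel but that of DNA replication, where knockout replicate 2 is the highest at 146.5 CPM.

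Markers of macrophages, satellite glia and fibroblasts differed by smaller ratios of means (1.21, 1.18 and 1.15) than the neutrophil markers (1.80). The 12 macrophage markers, none at 0, summed to 164, 277 and 340.3 CPM in the knockout libraries and to 130.4, 253 and 264 CPM in the control libraries. Of the 12, 9 had a positive and 3 a negative log2 fold change, and C1qb and C1qa rose with the block. The 10 satellite glia markers summed to 6556, 8432 and 8233 CPM in the knockout libraries and to 5925, 7187 and 6643 CPM in the control libraries. Here 9 were positive and 1 was negative, and S100b rose with the block. The 8 fibroblast markers summed to 1092, 1271 and 1716 CPM in the knockout libraries and to 829.6, 1215 and 1503 CPM in the control libraries. Among them 6 were positive and 2 were negative, and Lum rose with the block. The 10 Schwann cell markers averaged 5517 CPM in sum in the knockout and 5553 CPM in the control. The 11 endothelial and pericyte markers summed to 147 to 154 CPM in the knockout libraries and to 137 to 198 CPM in the control libraries. The 10 lymphocyte markers in the table, of 15 named, averaged 8.47 CPM in sum in the knockout and 7.34 CPM in the control, with 1 marker at 0 in a library. The 14 sensory neuron markers, which identify the tissue, averaged 24790 CPM in sum in the knockout and 22790 CPM in the control, with Nefh rising and Avil, Scn10a and Scn9a falling with the block. The 7 adipocyte markers, 1 of them at 0 in a library, summed to 4.55, 8.82 and 4.56 CPM in the knockout libraries and to 3.41, 19.5 and 36.3 CPM in the control libraries, so that control replicates 2 and 3 were high and control replicate 1 was the lowest of all. None of the tested Schwann cell, endothelial, lymphocyte, muscle or adipocyte markers passed in either edgeR fit. Only 4 of the 10 lymphocyte and 5 of the 7 adipocyte markers were tested, the others being too sparse. The part of the cells with these markers in the members' differences was not tested.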

How the data were processed

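Messenger RNA of dorsal root ganglia was sequenced in 3 knockout and 3 control libraries, and groups and replicate numbers came from the labels. The submitters' processing notes name STAR, cutadapt, DESeq2 and mm10, without versions, and no source used here names the counting tool or annotation. The authors deposited 1 table with raw counts per gene and library per the file headers, and these whole-number counts were used. The authors' normalized signal, which equalled the counts over a constant for each library, and their log2-scale transformed values were not used. Per the file headers, the table also holds the authors' log2 fold changes, p-values and a false discovery rate from fdrtool, and those printed are named as the authors'.

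Counts were fitted in R 4.3.3 with edgeR 4.0.16 (filterByExpr, which kept 15043 genes, TMM scaling, robust quasi-likelihood test, group as the only term), with p-values adjusted over all genes tested by Benjamini-Hochberg and a threshold of 0.05. CPM are TMM-scaled, and log2 fold changes are knockout over control. "Rose" and "fell" mean passing that threshold in the replicate-block fit. The groups share replicate numbers, and over 15043 genes the deviations of same-numbered libraries from their group means correlated at 0.53, 0.30 and 0.17 for pairs 1 to 3. All exceed 0.1, the level taken to pair the samples, although knockout replicate 3 and control replicate 2 also reached 0.14. The labels do not say what a number shares, so the pairing comes from the data. Deviations from a group mean cancel out within the group, so some positive correlations between the groups are forced. These correlations therefore cannot establish the pairing, and every call with the block depends on it. Alternatives were DESeq2 1.42.0, limma-voom (limma 3.58.1), other scalings and filters, and omission of each library or pair. The edgeR steps were tested on simulated counts with the same dispersion for every gene and no effect of replicate number. Such counts cannot test how the block treats pairing in these libraries. Within groups, chi-square per degree of freedom between libraries was 11.3 to 51.4, so no library was a repeat deposit of another within sampling noise. Whether libraries share an animal cannot be read from this. The floor of 3 counts covers counting error only.

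Exon lengths, positions and overlaps came from GENCODE M21 (GRCm38). Promoters came from RefSeq (GRCm38.p6), using the first start listed for each gene. All members are named, and of the other lists the genes that passed in either fit, at most 4 in a direction, or otherwise the 2 with the lowest unblocked p, where a result turns on them. Further condensin genes are also named, beside Smc2. The members and lists were chosen with earlier results of these data known.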

Additional observations from a re-analysis of the deposited data

How the results depend on the processing

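Over all genes, edgeR without a block called 0 genes as fitted, with either other scaling, with either other filter and with any 1 library left out. limma-voom called 0 and DESeq2 called 63. With the replicate block edgeR called 542 genes, and 208, 819 and 897 with pair 1, 2 or 3 left out. For the members the call count was 0 without a block and with DESeq2 and limma-voom, 1 with the replicate block, 0 with pair 1 or pair 3 left out of it, and 2 (Mki67 and Top2a) with pair 2 left out. The cause of these differences was not tested. The members' median log2 fold change was lowest (0.0921) with knockout replicate 3 omitted, 0.11 without control replicate 1 and highest (0.30) without control replicate 3, and the count of positive members ran from 27 to 33 over all alternatives. Of 590 member values under the alternatives, 22 changed sign, in 12 members, none of them called in either fit. Depth limits the 10 members that stayed under 50 counts in every library.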

Other observations

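Replicate 3 was the highest library within both groups for 11 of the 38 cell cycle genes (28.9%), among them Mki67, Rrm2 and Nusap1, against 9.47% of all genes tested. The same held for 18 of 58 further G2 and mitosis genes (31.0%), 13 of 15 neutrophil markers (86.7%) and 6 of 8 fibroblast markers (75.0%). It held for 2 of 14 sensory neuron markers (14.3%), 6 of 44 further S-phase genes (13.6%) and 1 of the 9 mitotic kinase and kinetochore members (11.1%). These shares describe the libraries and were not tested.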
